A study of Mus musculus with 96 samples.

Results

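The forebrain of undisturbed mice was followed over 1 circadian day. The 12 control (CON) forebrain libraries of the series were taken by their titles, out of 96 libraries in all, with 2 libraries at each of CT4, CT8, CT12, CT16, CT20 and CT24 (CT, circadian time in h, as the titles give it). The main comparison set CT16 and CT20 (the late set, 4 libraries) against CT4 and CT8 (the early set, 4 libraries), and all 12 libraries entered the profile over time and the 24 h cosinor. All mice were wild-type C57BL/6 males aged 6 to 8 weeks, kept under a 12 h light-dark cycle with free food and water and left undisturbed. By the account of the study, the samples themselves were collected in constant darkness. The mice they are set against below, the 12 sleep-deprived (SD) forebrain libraries, came from animals kept awake for 10 h by forced walking in a slowly turning drum during their resting phase, and the 12 control liver and 12 control cerebellum libraries carry the same strain, genotype and treatment labels as the control forebrain. The characteristics of the samples also carry a time in constant darkness that starts at 0 h where the titles start at CT4, so the sets are named here by CT alone and not as day or night. Whether liver, cerebellum and forebrain libraries of 1 time came from the same animals is not stated in the labels.

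The molecular clock of mammals is a loop of transcription factors. BMAL1 (gene Arntl) pairs with CLOCK or NPAS2 and binds E-boxes in the promoters of Per, Cry, Ciart, Nr1d1, Nr1d2 and Tef, and the PER, CRY and CHRONO (gene Ciart) proteins then block that pair. The REV-ERB receptors (Nr1d1 and Nr1d2) repress Arntl and Nfil3 in turn while the ROR receptors activate them, so Arntl and Nr1d1 are known to run in opposite phase. The PAR domain factors DBP, TEF and HLF carry the rhythm to output genes, and NFIL3 competes with them. The forebrain holds many separate cellular clocks outside the suprachiasmatic nucleus, and the swing of clock transcripts in such mixed tissue is known to be shallower than in liver.

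The promoters of 4 of the clock genes called below are shown because they hold, or lack, the short motifs through which the loop is known to act. They come from RefSeq on build GRCm38.p6, run 5′ to 3′ on the strand of the gene, cover 250 bases before and 50 bases after the annotated start, and have the motif letters in capitals. The motifs searched on both strands were the E-box CACGTG, the related CACGTT, the REV-ERB and ROR site AGGTCA and the D-box TTATGNAA. CACGTG reads the same on both strands, and a window of 6 bases that matches it cannot match another motif. Of 32851 promoters of this length, 7.15% held CACGTG, 4.68% CACGTT, 16.3% AGGTCA and 3.38% TTATGNAA. Of the 20 clock genes listed, 17 had a promoter entry, and 5, 4, 5 and 2 of them held the motifs in that order. These counts are per gene over 23 entries, so they do not compare directly with the percentages per promoter. A match is a string of letters, not a bound site.
Ciart (chr3:95882179-95882478, minus strand): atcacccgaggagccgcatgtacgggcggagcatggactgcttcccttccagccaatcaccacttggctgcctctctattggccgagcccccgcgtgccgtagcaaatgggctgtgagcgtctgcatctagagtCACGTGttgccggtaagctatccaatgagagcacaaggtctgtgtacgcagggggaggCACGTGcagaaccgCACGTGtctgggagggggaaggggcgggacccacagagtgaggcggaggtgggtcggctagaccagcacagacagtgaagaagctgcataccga
Nr1d1 (chr11:98775328-98775627, minus strand): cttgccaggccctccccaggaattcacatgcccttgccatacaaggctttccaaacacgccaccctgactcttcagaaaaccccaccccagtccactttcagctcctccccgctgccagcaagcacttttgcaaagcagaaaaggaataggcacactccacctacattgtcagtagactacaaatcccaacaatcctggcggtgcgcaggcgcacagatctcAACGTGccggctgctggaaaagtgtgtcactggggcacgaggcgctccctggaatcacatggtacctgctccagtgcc
Tef (chr15:81802423-81802722, plus strand, the first of 2 entries): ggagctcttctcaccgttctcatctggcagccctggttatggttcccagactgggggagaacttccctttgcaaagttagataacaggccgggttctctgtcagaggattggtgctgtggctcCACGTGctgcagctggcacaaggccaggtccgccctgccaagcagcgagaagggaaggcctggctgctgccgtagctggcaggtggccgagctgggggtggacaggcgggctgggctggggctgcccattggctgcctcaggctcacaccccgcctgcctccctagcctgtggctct
Arntl (chr7:113207261-113207560, plus strand, the second of 2 entries): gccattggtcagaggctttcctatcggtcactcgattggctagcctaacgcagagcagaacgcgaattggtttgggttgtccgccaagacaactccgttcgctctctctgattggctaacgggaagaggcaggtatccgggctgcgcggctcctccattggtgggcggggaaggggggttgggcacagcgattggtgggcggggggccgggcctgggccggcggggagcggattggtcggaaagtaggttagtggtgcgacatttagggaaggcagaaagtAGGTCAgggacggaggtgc
The Ciart promoter held CACGTG 3 times, with first bases at -116, -58 and -44 from the start, and 0.0883% of all promoters held it 3 or more times. Nr1d1 held CACGTT 1 time on the other strand at -28, and Tef held CACGTG 1 time at -127 in the entry shown and at -138 in the other. Arntl held no E-box in either entry and AGGTCA 1 time at 32 bases past the start shown. Not all clock genes went this way. Nr1d2, called higher below, held AGGTCA at -77 and neither CACGTG nor CACGTT. Rora, called lower, held 0 of the motifs. Cry1, Per1 (in its first entry) and Bhlhe41 held CACGTG and were not called.

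Ciart, which encodes the repressor CHRONO, changed more than any other clock gene of the 4 lists in the control forebrain. The gene lies on chromosome 3 from 95878503 to 95882251 (GRCm38, minus strand). Levels are given in CPM, the count of a gene scaled to the total count of its library after adjustment by a TMM scaling factor. Ciart had 6.14 and 5.38 CPM at CT4, 4.85 and 5.08 at CT8, and 10.0 and 7.23 at CT12. It had 14.96 and 18.4 CPM at CT16, 13.4 and 13.1 at CT20, and 9.35 and 9.59 at CT24. Each late library was above each early library, and the libraries of CT12 and CT24 lay between the sets. The mean rose from 5.36 ± 0.56 to 14.96 ± 2.46 CPM (SD, n = 4 each), or 1.47 as log2 fold change in edgeR with an SE of 0.12 (adjusted p = 0.00436). The 24 h cosinor gave an amplitude of 0.85 on the log2 scale (SE 0.08), a crest at CT18.1 (SE 0.4 h) and an adjusted p of 0.00618. Ciart was 1 of 207 genes called higher in the late set of 22266 tested (0.93%) and 1 of 23 genes called by the cosinor (0.103%). Leaving out single libraries moved the count of higher genes from 1 to 698, and Ciart was the single higher gene that stayed called in each of the 12 fits that left out 1 library.

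The REV-ERB receptors, which repress Arntl, were higher in the late set. Nr1d1 (chromosome 11, 98767932 to 98775333, minus strand) was at 100.1 and 96.7 CPM at CT4, 91.2 and 109.6 at CT8, 144 and 124 at CT12, 162 and 162 at CT16, 130 and 151 at CT20, and 108 and 108 at CT24. The sets did not overlap, and the top was at CT16. The log2 fold change was 0.60 (SE 0.08, adjusted p = 0.025), and the cosinor placed the crest at CT16.5 (SE 0.4 h) with an adjusted p of 0.0241. Nr1d2 (chromosome 14, 18204054 to 18239127, minus strand) had 119 to 140 CPM in the early set and 165 to 186 in the late set. It was already at 175 CPM in both libraries of CT12 and was at 177 and 191 at CT24, so its level was high from CT12 to CT24. The shape of this profile was not tested. Its log2 fold change was 0.40 (SE 0.07, adjusted p = 0.0302), and the cosinor did not call it (adjusted p = 0.156).

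Arntl, the activator that these receptors repress, moved the opposite way. The gene (chromosome 7, 113207465 to 113314126, plus strand) had 64.9 and 50.9 CPM at CT4, 53.9 and 66.3 at CT8, 58.5 and 44.1 at CT12, 29.7 and 40.8 at CT16, 38.4 and 35.1 at CT20, and 57.8 and 51.2 at CT24. All 4 late libraries were below all 4 early ones, and the level was back in the early range at CT24. The mean fell from 58.98 ± 7.74 to 36.00 ± 4.84 CPM (SD, n = 4 each), or -0.71 as log2 fold change in edgeR with an SE of 0.14 (adjusted p = 0.0337). It was 1 of 863 genes called lower (3.88%), a count that leaving out single libraries moved from 3 to 1417. The cosinor crest was at CT5.7 (SE 0.8 h) with an adjusted p of 0.0991. The partners of BMAL1 were not called. Clock lay between 151 and 174 CPM in all 12 libraries (log2 fold change -0.06, adjusted p = 0.511) and Npas2 between 40.1 and 54.2 CPM (-0.17, adjusted p = 0.344).

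Of the ROR receptors, Rora was called lower in the late set. Rora spans 734461 bases on chromosome 9 (68653786 to 69388246, plus strand). It had 672 to 844 CPM in the early set, 446 to 612 CPM in the late set and 773 and 852 CPM at CT24, with a log2 fold change of -0.51 (SE 0.10, adjusted p = 0.0314). The sets did not overlap. Rora is also strongly expressed in the thalamus. The other 5 markers listed for thalamus and midbrain summed to 52.3 to 153.7 CPM in the early set and 74.2 to 108.4 in the late set, with overlap, and none of them was called. Of all 6 markers, Rora among them, 4 had a negative and 2 a positive log2 fold change (median -0.23). The part of thalamic tissue in the change of Rora was not tested. Rorb, a receptor of cortical neurons, ran from 77.4 to 167 CPM early and from 125 to 226 late (log2 fold change 0.52, adjusted p = 0.205).

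The PAR domain factor Tef was higher in the late set, from 301 to 348 CPM early to 386 to 418 CPM late, with no overlap (log2 fold change 0.29, SE 0.06, adjusted p = 0.0357). Its cosinor crest was at CT19.8 (SE 0.4 h, adjusted p = 0.082). Hlf, a related factor, ranged from 115 to 244 CPM early and 176 to 248 late and was not called (adjusted p = 0.552). Nfil3, their competitor, had 7.70 to 10.8 CPM early and 5.18 to 6.68 late. These sets did not overlap, but the test missed the threshold (log2 fold change -0.56, adjusted p = 0.0700). Dbp could not be tested. It had at most 4 counts in any of the 12 libraries and at most 5 in any of the 96, so no statement on its rhythm can be made from this table.

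The period genes were not called. Per2 had 66.4 and 54.2 CPM at CT4, 37.0 and 51.5 at CT8, 39.7 and 44.1 at CT12, and 83.2 and 79.2 at CT24. Its cosinor crest of CT22.5 (SE 0.7 h) lay outside both sets, and its adjusted p was 0.0691 in the cosinor and 0.177 in the contrast. Per1 had 56.8 to 74.4 CPM early and 78.8 to 115 late without overlap (log2 fold change 0.46, adjusted p = 0.0876), and Per3 was not called (adjusted p = 0.485). The cryptochromes, the partners of the PER proteins, were not called. Cry1 had 17.6 to 23.3 CPM early and 19.6 to 22.7 late, and Cry2 had 115 to 138 early and 130 to 149 late. Bhlhe40 and Bhlhe41, which compete for E-boxes, were not called either (adjusted p = 0.493 and 0.772).

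In total, 4 of the 19 tested clock genes were called higher and 2 lower, where 0.93% and 3.88% of all 22266 genes were called in those directions. The cosinor called 2 of the 19, against 0.103% of all genes. The sets did not overlap for 8 of the 19 clock genes (42.1%), against 17.4% of all genes. The JTK_CYCLE rank test for rhythms called none of the 19 (smallest adjusted p = 0.471, shared by Nr1d1 and Tef, on TPM). It called 0 of 21340 genes in all, with 1136 at an unadjusted p under 0.05. With 12 libraries this rank test has few distinct p-values, so its 0 calls cannot decide whether these genes are rhythmic.

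**Figure D1:**
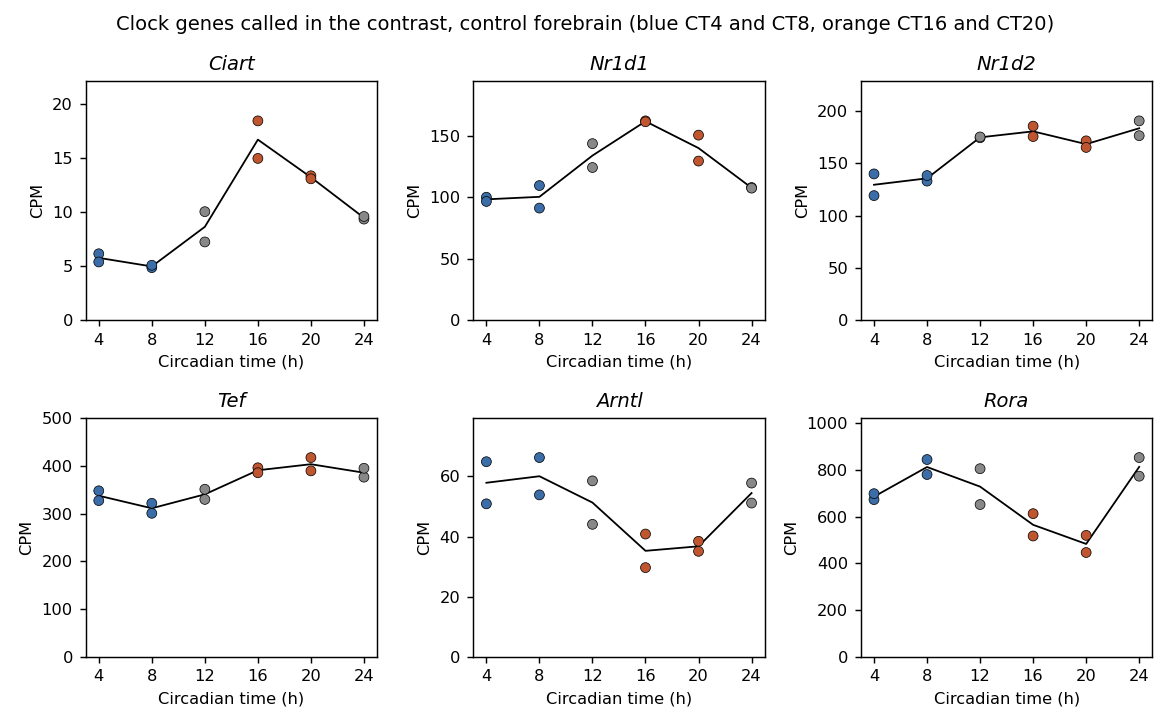
Level in CPM (y axis, from 0) of the 6 called clock genes against circadian time in h (x axis), with 1 point per control forebrain library, blue for CT4 and CT8, orange for CT16 and CT20 and grey for CT12 and CT24, and a line through the means of 2. Ciart climbs from 5.36 to 14.96 CPM between the sets, and Arntl and Rora dip at CT16 and CT20.

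The amplitudes and crests were then compared with those of other tissues. In control liver the amplitude of Nr1d1 was 2.29 on the log2 scale (SE 0.17), against 0.38 (SE 0.04) in control forebrain, and that of Arntl was 1.73 (SE 0.16) against 0.41 (SE 0.09). Ciart had 3.16 (SE 0.48) in liver, 0.81 (SE 0.09) in cerebellum and 0.85 (SE 0.08) in forebrain. The rhythm differed between forebrain and liver for 13 of the 19 tested clock genes, where 10.5% of 24368 genes differed. The adjusted p was 3.51e-07 for Nr1d1, 0.000466 for Arntl and 0.00232 for Ciart. The crest of Ciart was at CT18.8 in liver, CT18.1 in forebrain and CT19.6 in cerebellum. That of Nr1d1 was at CT14.6, CT16.5 and CT17.4, and that of Arntl at CT5.2, CT5.7 and CT8.7, in the same order of tissues. Against cerebellum, 0 of the 19 clock genes differed in rhythm, where 3 of 23519 genes did (2849 at an unadjusted p under 0.05). For Arntl the adjusted p was 0.311. Control cerebellum CT8 replicate 1 stood apart, because its antisense genes held 22.2% as many counts as the coding genes opposite them, where the remaining 11 libraries of that group had 4.73% to 5.78%. Without it the amplitude in cerebellum was 0.89 for Ciart, 0.38 for Nr1d1 and 0.59 for Arntl, the crests were at CT19.6, CT17.4 and CT8.7, and 4 genes and 0 clock genes differed.

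**Figure D2:**
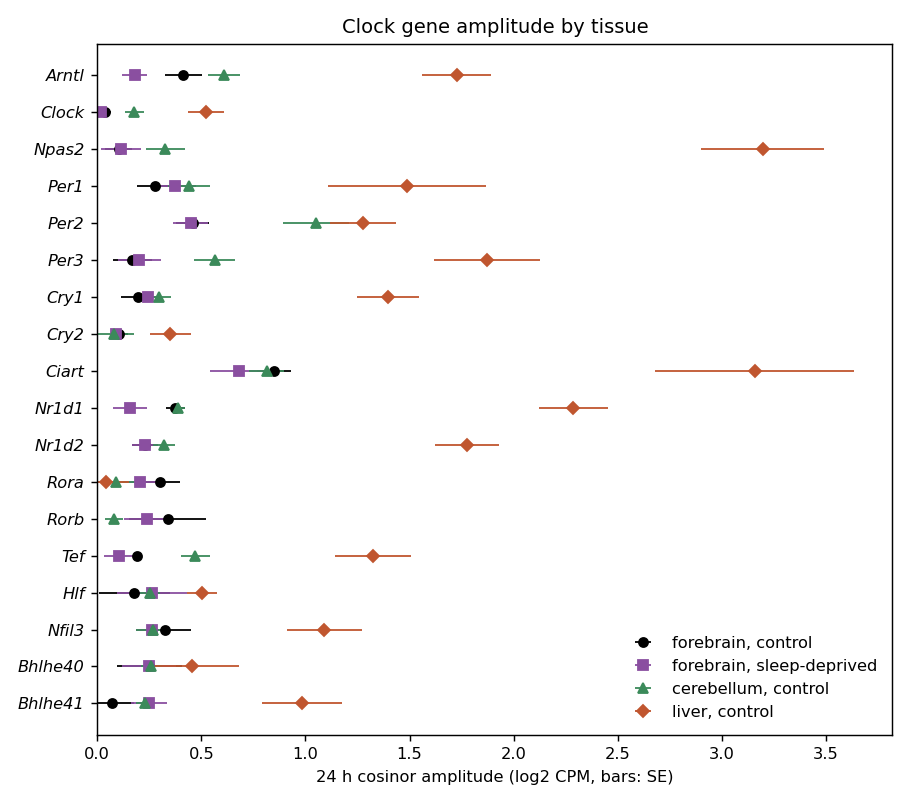
Amplitude of a 24 h cosine on log2 CPM (x axis, from 0, bars SE) for 18 clock genes (y axis) in control forebrain, sleep-deprived forebrain, control cerebellum and control liver, 12 libraries each. The liver points lie farthest right for most genes, as for Nr1d1 with 2.29 against 0.38 in control forebrain. Rora and Rorb have their largest amplitude in control forebrain, and Rorb, not tested in liver alone, has no liver point.

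A few genes of other lists tied to the clock, to body temperature or to protein folding were called in the same comparison, where 0.93% of all genes were called higher and 3.88% lower. Usp2, a deubiquitinase driven by the clock, was the 1 called of 11 other clock-linked genes, at 54.2 to 63.2 CPM early and 75.2 to 94.0 late (log2 fold change 0.49, adjusted p = 0.0482). Of the 12 tested temperature-responsive genes, 2 were higher and 1 lower, with a median log2 fold change of -0.02. The cold-inducible RNA-binding genes Cirbp (0.43, adjusted p = 0.0359) and Rbm3 (0.52, adjusted p = 0.0337) were higher, with Rbm3 at 17.6 to 28.4 CPM early and 27.7 to 34.6 late. The heat shock gene Hspa1b, which has a near-identical neighbor and is therefore uncertain, was lower (-0.59, adjusted p = 0.0497). Among 15 endoplasmic reticulum chaperones, 3 were lower and none higher, namely Hspa5 (-0.42, adjusted p = 0.0304), Pdia4 (-0.30, adjusted p = 0.0394) and Sdf2l1 (-0.55, adjusted p = 0.0379). Hspa5, the main chaperone of that compartment, was lowest at CT12 with 139 and 146 CPM, against 218 to 265 early and 173 to 202 late.

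A few cholesterol synthesis genes and a histamine receptor gene were higher in the late set. All 12 tested cholesterol genes had a positive log2 fold change (median 0.19, against -0.00 over all genes tested), and 3 were called higher (0.93% of all genes were). Among them, Hmgcs1, an early enzyme of the pathway, had 271 to 306 CPM early and 335 to 390 late (0.32, adjusted p = 0.0446). Insig1, which holds back the pathway when sterols are plentiful, had 50.6 to 61.9 CPM early and 69.0 to 80.3 late (0.38, adjusted p = 0.043). Of 17 receptors for sleep and wake neuromodulators, 1 was called. That was Hrh3, the presynaptic histamine receptor, at 40.0 to 64.0 CPM early and 77.6 to 95.4 late with no overlap (0.85, SE 0.11, adjusted p = 0.025). Npsr1, the receptor of the arousal peptide neuropeptide S, was not in that list but had 2.34 to 3.69 CPM early and 5.50 to 7.79 late (1.14, SE 0.19, adjusted p = 0.0302). None of 19 immediate early genes and none of 15 glucocorticoid-responsive genes was called. Each range was wide. The summed level of the immediate early genes ran from 871 to 1883 CPM early and from 1037 to 1804 late.

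The 10 largest rises with no overlap between sets included Gm45623, Thbs4, Dnah6, Cplx3, Npbwr1, Ciart, Ccl28, Npsr1 and Gnb4. Thbs4, a secreted thrombospondin, had 0.63 to 1.76 CPM early and 3.69 to 6.13 late, but 7.47 and 10.0 at CT12 and 8.47 and 13.7 at CT24, so its low was at CT4 and CT8 alone (log2 fold change 2.03, adjusted p = 0.0302). Ccl28, a chemokine, had 1.35 to 2.26 CPM early and 2.79 to 5.89 late (1.36, adjusted p = 0.0302) and was also called by the cosinor (crest CT15.8, adjusted p = 0.0395). Npbwr1 is a receptor for neuropeptides B and W (1.55), Cplx3 a complexin of synapses (1.79), Dnah6 a motor protein of cilia (1.93) and Gnb4 a G protein subunit (1.01). Gm45623 rose by 2.93 but spread from 13.8 to 42.0 CPM within the late set. Regional markers also varied between libraries. The striatal dopamine receptor gene Drd2 stood at 0.91 to 63.7 CPM early and 6.94 to 78.3 late, and the 8 striatal markers summed to 318 to 2232 CPM early and 422 to 2222 late, none of them called. The oligodendrocyte markers were all positive (7 of 7, median 0.95) with none called and sums of 803 to 3069 CPM early and 2678 to 4501 late. The part of these markers in the changes above was not tested. In bulk tissue fewer cells of a type and less RNA per cell cannot be told apart.

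The genes called lower included several collagen genes, fibrillin and fibronectin. The 10 largest falls without overlap were Slc6a12, Slc47a1, Gm10123, Prdm6, Fat2, Bnc2, Foxc2, Car13, Gm26059 and Gm24657. Bnc2, a zinc finger gene (chromosome 4, 84275095 to 84675275), had 6.64 to 12.4 CPM early, 2.18 to 3.05 late and 3.89 and 3.99 at CT24 (log2 fold change -1.89, SE 0.15, adjusted p = 0.00349). It stayed called in each of the 12 fits that left out 1 library, in the contrast and in the cosinor (crest CT7.8, adjusted p = 0.00226). Among the 23 cosinor calls were also the collagen genes Col3a1 (-1.24), Col5a2 (-0.87) and Col6a2 (-0.70), the fibrillin gene Fbn1 (-0.91), the fibronectin gene Fn1 (-0.66) and the zinc finger factor gene Zic4 (-1.16), all with crests between CT7.1 and CT8.8. Slc6a12, a betaine and GABA transporter, and Slc47a1, an exporter of organic cations, fell by 2.47 and 2.35 on the log2 scale.

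Markers of the meninges moved with this group. The 6 markers (Dcn, Lum, Col1a1, Col1a2, Igf2 and Slc6a13) all had negative log2 fold changes (median -1.14) and 3 were called, namely Slc6a13 (-1.73), Col1a1 (-1.22) and Col1a2 (-1.07). Their summed level was 93.7 and 264 CPM at CT4, 277 and 213 at CT8, 177 and 195 at CT12, 85.5 and 81.1 at CT16, 80.9 and 121.6 at CT20, and 93.7 and 90.4 at CT24. The library CT4 replicate 1 was thus as low as the late set, and the level of CT24 was that of the late set. Of the called clock genes, Ciart, Nr1d2 (177 and 191 CPM) and Tef (377 and 395 CPM) were also above their early ranges at CT24. Arntl (57.8 and 51.2 CPM) was within its early range. The part of these markers in the changes was not tested beyond the fit that follows. With the log2 of the meninges sum as a covariate, an alternative chosen after seeing the data that leaves 5 residual degrees of freedom, no gene was called in the contrast (3035 at an unadjusted p under 0.05) or by the cosinor (2934). The fold change of Ciart was then 1.31, that of Nr1d1 0.57 and that of Arntl -1.03, with adjusted p of 0.22, 0.26 and 0.23.

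**Figure D3:**
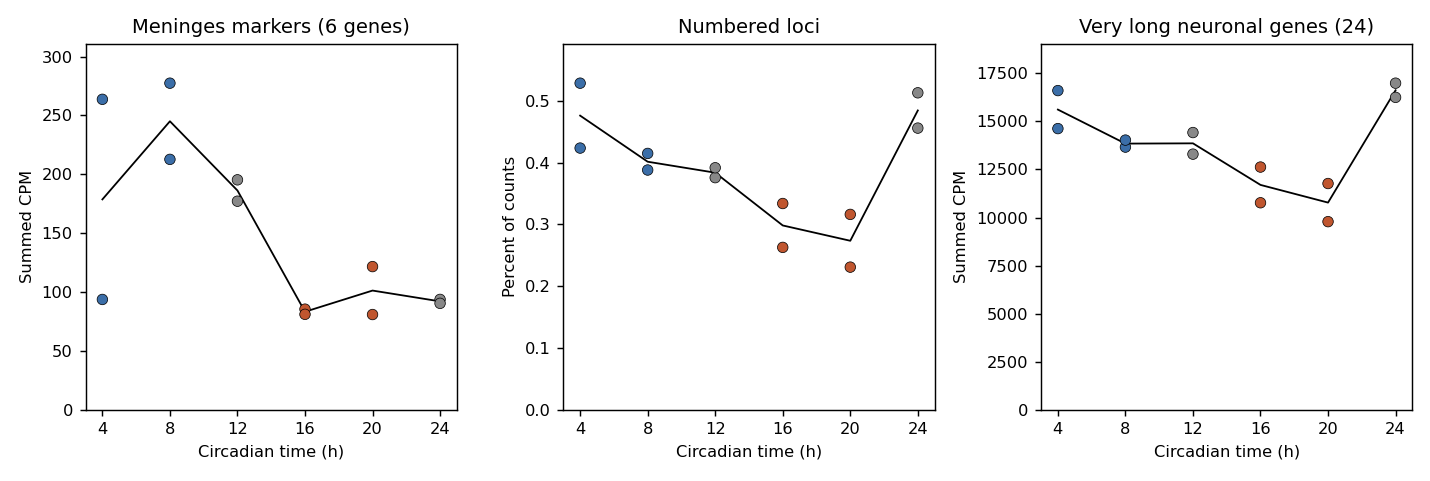
Summed CPM of the 6 meninges markers (left), percent of all counts on numbered loci (middle) and summed CPM of 24 very long neuronal genes (right) against circadian time in h, with 1 point per control forebrain library in the colors of the clock gene plot and y axes from 0. The meninges sum stays low at CT24 (93.7 and 90.4 CPM), whereas the other panels return to the early level at CT24.

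Many of the other genes called lower were noncoding. Of 1319 tested loci of the annotation class TEC, for loci still to be tested by experiment, 163 were called lower (12.4%), and of 182 sense intronic transcripts 26 were (14.3%), with 0 called higher in either class. Protein-coding genes were called lower in 3.12% and higher in 1.35% of 14816. The numbered loci of the count table, which carry no gene name, gave 37 lower and 0 higher of 861 tested. They took 0.388% to 0.528% of all counts in the early set, 0.231% to 0.334% in the late set and 0.456% and 0.513% at CT24. The single genes show the same profile. Malat1, a nuclear long noncoding RNA, had 7297 to 8291 CPM early, 4463 to 5545 late and 7597 and 8022 at CT24 (log2 fold change -0.67, SE 0.09, adjusted p = 0.025). Gm3764, a long intergenic RNA on chromosome 3 (88206813 to 88229959), had 125 to 134 CPM in all 8 libraries of CT4, CT8, CT12 and CT24 and 66.2 to 100.03 CPM in the 4 late libraries (-0.72, SE 0.06, adjusted p = 0.00436). It was 1 of only 3 lower genes, with Bnc2 and Cep112, that stayed called in all 12 fits with 1 library left out. Malat1 and Gm3764 were chosen after their values were seen. Cep112, a protein-coding gene for a centrosomal protein spanning chromosome 11 from 108425192 to 108860615, fell from 45.5 and 46.1 CPM at CT4 to 10.7 and 9.64 at CT16 (-1.59, SE 0.12, adjusted p = 0.00349).

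Gene length was examined next, because a trend along length can carry a clock gene with it. Protein-coding genes that span under 10 kb had a median log2 fold change of 0.11 (n = 3328), those of 10 to 30 kb 0.05, those of 30 to 100 kb 0.01, those of 100 to 300 kb -0.02 and those over 300 kb -0.07 (n = 548). The share called lower ran from 1.26% in the shortest class to 6.39% in the longest, and the share called higher from 1.62% to 0.73%. Over time, the median of the shortest class was lowest at CT24 (-0.08 from its mean over times) and highest at CT20 (0.09). The length balance of a library, the median log2 CPM of 2353 genes over 100 kb minus that of 3328 genes under 10 kb, was 2.72 to 2.82 in the early set and 2.59 to 2.71 in the late set. The sets did not overlap (difference -0.10, exact two-sided permutation p = 0.0286, the smallest that 70 splits allow, 0.114 after adjustment over 4 tests). With the longest and shortest 10% of genes by span the exact permutation p was 0.143, and by exonic length it was 0.2. Of 24 very long neuronal genes, 4 were called lower (3.88% of all genes were), namely the adhesion genes Lsamp (-0.77), Csmd1 (-0.71) and Nlgn1 (-0.67) and the glutamate receptor gene Grm7 (-0.36). Their sum was 13665 to 16605 CPM early, 9787 to 12627 late and 16252 and 16990 at CT24. At the short end, 61 of 71 cytosolic ribosomal protein genes had a positive fold change (median 0.17), with 2 called, Rps29 (0.35) and Rpl39 (0.32), which both have many processed copies and are uncertain. Of 80 respiratory chain genes, 1 was called higher (Ndufa9, 0.23) and 2 lower (Uqcrb at 0.53 to 1.42 CPM and the assembly factor Ndufaf5), shares near the 0.93% and 3.88% of all genes.

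**Figure D4:**
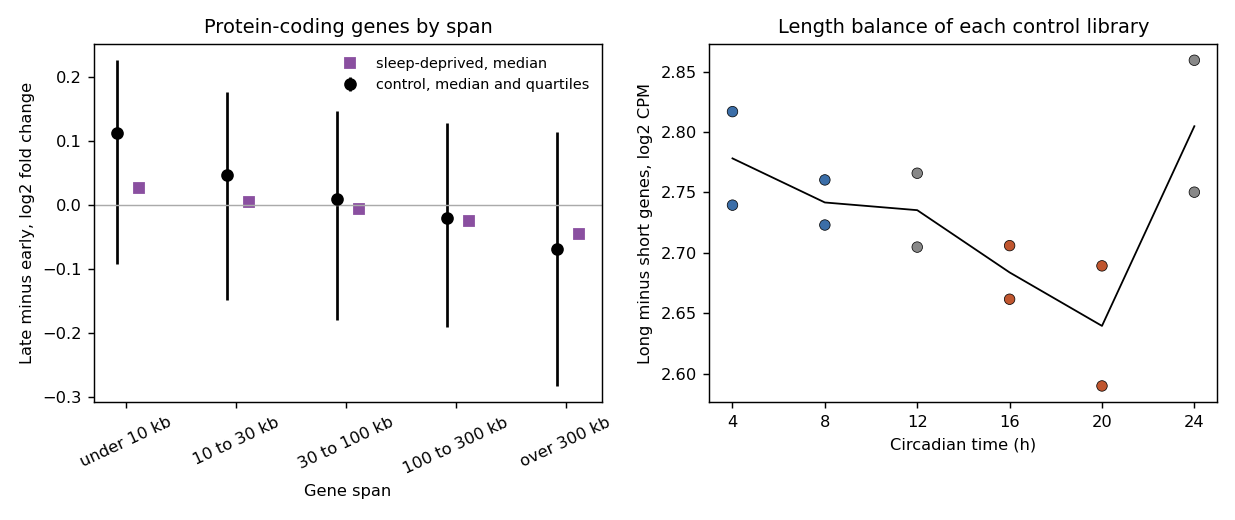
Left, median log2 fold change of late minus early (y axis) of protein-coding genes by span class (x axis), with quartiles for control forebrain and squares for sleep-deprived forebrain. Right, length balance in log2 CPM (y axis, not from 0) of each control library against circadian time in h, in the colors of the clock gene plot, with a line through the means of 2, from 2.59 at CT20 to 2.86 at CT24.

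The clock genes were then set against genes of their own length class. Ciart spans 3749 bases, and its log2 fold change was 1.36 above the median of genes under 10 kb, higher than 99.6% of them. Nr1d1 (7402 bases) was 0.49 above that median and higher than 96.7%. Nr1d2 was higher than 95.3% and Tef higher than 90.2% of their classes. On the other side, Arntl (106662 bases) was at -0.69 from its class median, with 3.10% of the class below it, and Rora, in the class over 300 kb, was at -0.45 from its median, with 9.85% of the class below it. Within the class of 100 to 300 kb that holds Arntl, the median was -0.02. The clock genes that were not called ran from 6.48% of their class below them (Nfil3) to 96.8% (Rorb), with Cry1 at 53.4%. When the length balance of each library was a covariate, the fold change was 1.56 for Ciart, 0.59 for Nr1d1, 0.32 for Nr1d2, 0.25 for Tef, -0.55 for Arntl and -0.42 for Rora, all in the direction of the fit without it. No gene was called in that contrast (2041 at an unadjusted p under 0.05, Ciart with an adjusted p of 0.177). The balance came from the same counts and did not overlap between the sets. This fit therefore cannot fully separate it from the late minus early difference. The cosinor with this covariate called 17 genes, 13 of them among the 23, and kept Ciart (adjusted p = 0.0178) but not Nr1d1 (adjusted p = 0.102).

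The sleep-deprived forebrain gave 12 more libraries. There the contrast called 0 of 22348 genes (0%, 2782 at an unadjusted p under 0.05), and the cosinor called 1. Ciart had 5.27 to 14.0 CPM in the early set and 8.70 to 19.5 in the late set under sleep deprivation, with overlap, and a log2 fold change of 0.66 (SE 0.19). Its crest was at CT21.6, against CT18.1 in controls (edgeR interaction of the rhythm, unadjusted p = 0.000587, adjusted p = 0.82). The fold change of Nr1d1 was 0.27 and that of Arntl -0.30 under sleep deprivation, both of the sign seen in controls. Of the 207 genes called higher in controls, 166 had a positive fold change in the sleep-deprived animals (median 0.08, against 0.32 in controls). Of the 860 tested genes called lower, 727 had a negative one (median -0.15, against -0.73). Over all genes tested in the sleep-deprived forebrain the median was 0.003. Both groups were picked by their control fold change. Smaller medians in other animals would therefore arise without any effect of sleep loss, and these medians cannot show a weaker program. The difference between the conditions was called for 0 of 23078 genes in the contrast (smallest adjusted p = 0.0773, 2947 at an unadjusted p under 0.05) and for 0 in the rhythm (1390 at an unadjusted p under 0.05). The gene with the smallest p was Npsr1. It ran from 4.42 to 9.58 CPM in the early set and from 2.15 to 5.25 CPM in the late set under sleep deprivation, a log2 fold change of -1.13 where controls had 1.14. The meninges markers had a median of -0.64 there, and the length balance differed by -0.07 between the sets (exact permutation p = 0.257).

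The number of called genes moved when single libraries were left out, a step that also takes away 1 residual degree of freedom. The part of that loss in the moves was not tested. Leaving out CT4 replicate 1 raised the contrast to 698 higher and 1417 lower genes. Leaving out CT4 replicate 2, CT16 replicate 1, CT20 replicate 2 or either library of CT24 left 1 or 2 higher and 3 to 6 lower. The libraries of CT12 and CT24 enter neither of the means compared. They enter the estimate of the spread between replicates, the filter on low counts and the scaling. The direction of the 6 called clock genes was the same in each of these fits, with log2 fold changes of 1.40 to 1.55 for Ciart, 0.51 to 0.67 for Nr1d1, 0.35 to 0.46 for Nr1d2, 0.24 to 0.32 for Tef, -0.83 to -0.60 for Arntl and -0.58 to -0.45 for Rora. Ciart stayed called in 12 of 12 fits, Nr1d1 in 7, Nr1d2 and Rora in 3, Arntl in 2 and Tef in 1. A test of any difference among the 6 times called 0 genes (3617 at an unadjusted p under 0.05, smallest adjusted p = 0.0519), where DESeq2 called 1683.

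**Figure D5:**
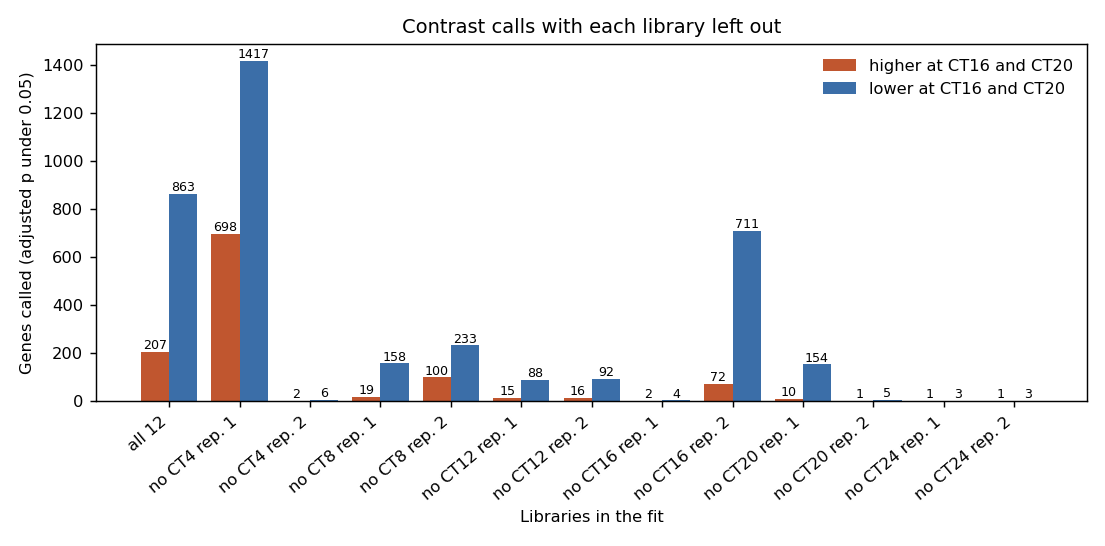
Number of genes called in the contrast (y axis, from 0) with all 12 libraries and with each library left out in turn (x axis), orange for higher and blue for lower at CT16 and CT20. The count of lower genes runs from 3 without a CT24 library to 1417 without CT4 replicate 1.

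The 12 libraries held 30.1 to 36.5 M counts each, with 31.3 to 35.1 M in the early set and 34.04 to 36.5 M in the late set. Neuron markers summed to 4128 to 5920 CPM and astrocyte markers to 6041 to 7642 CPM in the 12 libraries, both at high level. None of the 5 pituitary markers passed the filter on low counts, so no level is given for them. Choroid plexus markers summed to 7.20 to 35.4 CPM in 11 libraries and 116 CPM in CT20 replicate 2.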

How the data were processed

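RNA was total RNA, depleted of ribosomal RNA and sequenced as strand-specific read pairs. The deposited counts, made by the authors with Trim Galore, HISAT2 (GRCm38), SAMtools and strand-aware featureCounts, are raw whole-number counts per gene, filtered on mapping quality, which can lower the counts of genes that have close copies. Groups came from sample titles. The members and gene lists were chosen with earlier results of these data known. Genes were kept by filterByExpr over the 6 times, scaled by TMM and tested in edgeR 4.0.16 (R 4.3.3) by quasi-likelihood (1 mean per time; late minus early contrast, 24 h cosine and sine terms, or all times), with Benjamini-Hochberg adjustment over all genes and a threshold of 0.05. Amplitudes and crests came from least squares on log2 CPM (prior count 0.5). Interaction terms compared conditions and tissues. Each SE was taken as the log2 fold change divided by the root of its F statistic. Replicates are separate samples by label, described as biological by the study, with 2 at each time.

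Named genes were all tested clock genes, the 10 largest non-overlapping changes each way among calls with a symbol and a mean of at least 1 CPM, all cosinor calls with a symbol up to 30, and up to 4 members with the smallest p of each other list. Markers named because they were called, Drd2, Malat1, Gm3764 and Snhg11 were chosen after their values were seen. Of the 49585 Ensembl identifiers, 49326 had a symbol in GENCODE M21, and 5248 features were numbered loci. The ribosomal list left out kinases and like-named genes, and the respiratory list was set by symbol prefix. Alternatives were DESeq2 1.42.0, JTK_CYCLE on TPM and CPM, other scalings, no filter, a replicate block, the 2 covariates and each library left out. Scripts were tested on simulated data. Values of some members are not reported here, though counts over lists include them. Same-numbered libraries of different times did not deviate together (3 of 15 correlations over 0.1, range -0.37 to 0.42), so the numbers were not used as pairs. Figures were drawn with matplotlib 3.10.9 in Python 3.11.15.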

Additional observations from a re-analysis of the deposited data

Results flagged for a closer look

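The sums of 3 marker lists stood far from the other libraries of their set, out of 114 groups of 4 libraries examined by the gap of the farthest library to its nearest neighbor over the whole range, a measure by which chance alone sets apart about 1 in 20 groups. The choroid plexus and ependyma markers summed to 116 CPM in CT20 replicate 2, against 15.5 to 21.5 CPM in the other late libraries. The meninges markers summed to 121.6 CPM in the same library, against 80.9 to 85.5 CPM. The striatum markers summed to 2232 CPM in CT8 replicate 1, against 318 to 354 CPM in the other early libraries.

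The 24 h rhythm differed between control forebrain and control liver for 13 clock genes by the interaction test of edgeR. The adjusted p was 0.000466 for Arntl, 0.00395 for Clock and 8.61e-08 for Npas2. Among the repressors it was 0.00734 for Per2, 0.00147 for Per3, 0.000152 for Cry1 and 0.00232 for Ciart. Among the receptors it was 3.51e-07 for Nr1d1 and 1.4e-05 for Nr1d2. For the output factors it was 0.00259 for Tef, 0.0325 for Nfil3 and 0.0101 for Bhlhe41. The amplitude of each of these 12 genes was larger in liver.

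Against control cerebellum the rhythm differed for 3 genes, of which none is a clock gene. Wnt6, a secreted signaling protein, had an amplitude of 1.19 with its crest at CT8.4 in forebrain and 0.55 at CT17.3 in cerebellum (adjusted p = 0.0243). Asgr1 had 1.40 in forebrain and 0.22 in cerebellum (adjusted p = 0.0243), and the snoRNA gene Gm24219 had 1.15 and 0.52 (adjusted p = 0.0165). Without control cerebellum CT8 replicate 1, whose antisense share stood apart, the adjusted p was 0.0261 for Wnt6, 0.0205 for Asgr1 and 0.00551 for Gm24219. In forebrain these 3 genes lay between 0.15 and 3.98 CPM.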

How the results depend on the processing

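Counts of called genes moved far more with the processing than the directions of the clock genes did. In the contrast, DESeq2 called 672 higher and 1556 lower genes, library sizes alone gave 94 higher, and a fit of 2 groups in 8 libraries gave 134 and 546. The length covariate, with or without the block, and the meninges covariate gave 0 in both directions. The cosinor called 1442 genes with DESeq2, 67 without the filter, 10 with block and length covariate, 0 with the meninges covariate and 0 by JTK_CYCLE on TPM or CPM. JTK_CYCLE has few distinct p-values with 12 libraries. The test of any time called 1683 genes with DESeq2, 694 without the filter and 2 with RLE factors. The replicate block gave 42 higher and 277 lower genes and 29 cosinor calls, and under it Arntl, Rora and Tef lost their call. Tef also lost it with library sizes alone and in the fit of 2 groups, and all 6 called clock genes did with either covariate. With library sizes alone the called cholesterol genes went from 3 to 1 and the ribosomal genes from 2 to 0. The replicate numbers are only shared names, so pairing by the block has no support in the labels. With 1 library left out, the contrast ran from 1 to 698 higher and 3 to 1417 lower, the cosinor from 2 to 99 and the test of any time from 0 to 5. The length balance ran from -0.113 to -0.0743 and missed the threshold for the longest and shortest 10% by span (-0.107) or exonic length (-0.0874), and without CT4 replicate 2, CT8 replicate 2 or CT20 replicate 2 (exact permutation p = 0.0571 each). The difference from the sleep-deprived forebrain ran from 0 to 8 genes in the contrast and 0 to 1 in the rhythm, with 1 under the length covariate. The tissue differences ran from 889 to 2762 genes and 11 to 14 clock genes for liver, and from 0 to 11 genes and 0 clock genes for cerebellum. Among the named genes, those whose sign turned had not been called. Cry1 went to -0.024 with library sizes alone, -0.0074 with the length covariate, -0.048 with block and length covariate and -0.13 with the meninges covariate. Per3 went to -0.024 with block and length covariate. With the meninges covariate Per3 went to -0.31, Bhlhe40 to -0.18, Hlf to -0.24, Rorb to -0.0062, Sult1a1 to 0.092 and Btg2 to 0.12. With 1 library left out, Bhlhe41 ran from -0.071 to 0.28 and Cry1 from -0.030 to 0.11. The cause of these shifts was not tested.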

Other observations

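Of the microglia markers, all 8 had a positive log2 fold change (median 0.18), their sum ran from 263 to 297 CPM early and from 297 to 344 late, and 1 of them was called, the purinergic receptor gene P2ry12 (0.33). With library sizes alone 0 of the microglia markers were called. The endothelial tight junction gene Cldn5 was the 1 called of 8 endothelial and mural markers and was lower (-0.45). Over all genes tested, 0.93% were called higher and 3.88% lower, so 1 call in a list of 8 says little about the list.

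A list of nuclear noncoding RNAs, chosen after their values were seen and therefore not tested, took 1.06% to 1.19% of all counts in the early set, 0.62% to 0.742% in the late set and 1.09% and 1.11% at CT24. Snhg11, a snoRNA host gene, had a log2 fold change of -0.58 (edgeR adjusted p = 0.0256) and was also chosen after its values were seen.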
